A study of Mus musculus with 19 samples.

Results

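The distal ends of the 19 autosomes were examined in a ChIP-seq data set from mouse ESCs, the pluripotent embryonic stem cells, which the study cultured in serum and LIF. Members were 2 kb regions of the deposited table that start within 1 Mb of the last base of chromosomes 1 to 19 and hold at least 1 read in the input library (chromatin sequenced without immunoprecipitation). There were 9277 such regions among 1327469 in all, or 0.794% of the 1167863 autosomal regions with an input read. Another 223 regions of the same megabases had no input read and did not count as members. Each end gave 460 to 500 members, and mouse autosomes carry their centromere at the opposite end.

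Conditional knockout (cKO) ESCs carrying *Dnmt1* loxP/loxP alleles, in which Cre induced with tamoxifen had deleted *Dnmt1*, were compared with control ESCs at day 4 and day 8 to ask how silencing marks respond when DNA methylation is lost. For each of the 3 marks (H3K27me3, H3K9me2 and H3K9me3) 1 pair of control and cKO samples was sequenced on day 4 and 2 pairs on day 8, and the single input was a control sample. The day 8 pairs, named first and second by their replicate numbers, share only a number in the labels. The labels give E14 as the background strain and Wildtype as the control genotype, whereas the methods of the study name a single conditional line of C57BL/6 strain, so the strain is uncertain, as is whether the controls were that line without Cre induction. The study's methods treat the ChIP-seq as a single measurement and call no significance from it, and how far the day 8 libraries are independent is not stated. The p-values given here therefore take the day 8 libraries as replicates. They measure only the spread between libraries, which may be technical and which the linear models (limma) pool in part over all features tested.

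DNMT1 copies DNA methylation onto new strands after replication. H3K27me3 is laid down by Polycomb repressive complex 2, mostly over CpG-rich promoters of developmental genes in ESCs. H3K9me2 covers broad repressed domains, and H3K9me3 marks repeats and heterochromatin. The DNA next to telomeres holds gene-poor as well as gene-rich stretches.

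The ends differed little from the rest of the autosomes in base composition. GC content averaged 41.8% in members and 41.9% in the other autosomal regions. CpG sites numbered 14.4 per region against 16.9. Genes were denser, with 14.4 protein-coding and lincRNA genes starting per Mb against 9.42. In all, 273 genes started in the last megabase, 261 of them protein-coding and 12 of the lincRNA type. The ends were far from alike: GC ranged from 37.5% at the chromosome 10 end to 49.7% at the chromosome 7 end, and protein-coding genes from 2 at the chromosome 14 and 17 ends to 45 at the chromosome 4 end.

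Depth was 14627174 to 26181489 reads per ChIP library. One library stood apart with 5669098, the H3K9me3 cKO library of the first day 8 pair. In the *Dnmt1* region on chromosome 9 from 20744001 to 20746000, chosen after its values were seen, cKO libraries held 1 read and control libraries 49 at day 8, and cKO had fewer reads in 9 of 9 pairs. As a check of the cell type, promoter H3K27me3 was 0.746-fold of input at the median of 10 ESC genes (0.191 to 4.95) and 25.8-fold at the median of 11 genes of other lineages (3.03 to 33.0) in control libraries.

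The sequences below come from the members that lead each mark in control ESCs (by ChIP over input, at least 5 input reads), as examples. All 3 of these members held 5 input reads, the minimum, where the median region held 15, so their ratios rest on low input. The first stretch, chr7:152024665-152024964 in NCBIM37 (plus strand), overlaps coding exon sequence of *Fgf3*, which encodes a growth factor of early development, and lies in the member with the highest H3K27me3. The second, chr7:151897687-151897986 (plus strand), is intronic in *Ano1*, which encodes a calcium-activated chloride channel, in the member with the highest H3K9me2 over input. That member held 18, 31 and 27 H3K9me2 reads in the control libraries, whose median regions held 11, 17 and 12. The last, chr2:181646122-181646421 (plus strand), is intergenic, 12584 bases from *Gm5466* at the region's edge, in the member with the highest H3K9me3. Each is the run of 300 bases with most CpG sites in its region outside any UTR, and capitals mark CpG.
H3K27me3, Fgf3: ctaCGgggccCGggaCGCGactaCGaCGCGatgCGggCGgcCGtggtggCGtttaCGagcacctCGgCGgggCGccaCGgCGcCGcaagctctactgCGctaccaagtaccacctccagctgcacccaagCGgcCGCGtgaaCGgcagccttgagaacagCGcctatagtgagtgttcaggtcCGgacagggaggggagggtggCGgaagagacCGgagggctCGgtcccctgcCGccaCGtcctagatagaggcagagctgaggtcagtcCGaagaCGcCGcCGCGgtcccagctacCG
H3K9me2, Ano1: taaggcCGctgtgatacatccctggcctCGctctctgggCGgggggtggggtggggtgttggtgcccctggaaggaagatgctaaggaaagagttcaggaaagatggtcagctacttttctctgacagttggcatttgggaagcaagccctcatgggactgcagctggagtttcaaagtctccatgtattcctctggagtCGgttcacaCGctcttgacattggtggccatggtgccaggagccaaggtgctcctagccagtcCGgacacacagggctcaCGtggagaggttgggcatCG
H3K9me3, intergenic: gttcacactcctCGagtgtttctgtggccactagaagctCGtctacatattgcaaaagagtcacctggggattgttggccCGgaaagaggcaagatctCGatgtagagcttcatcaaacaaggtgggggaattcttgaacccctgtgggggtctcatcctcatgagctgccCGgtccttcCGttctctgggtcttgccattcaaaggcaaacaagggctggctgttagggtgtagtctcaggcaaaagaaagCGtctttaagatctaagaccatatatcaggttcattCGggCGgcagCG
The *Fgf3* stretch held 36 CpG sites and the other two held 8 and 10.

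Levels of the marks were compared between the last megabase and the rest of the same chromosome. The level of a library was the log2 ratio of ChIP to input reads in the last megabase minus the same ratio in the rest, averaged over the 19 autosomes. H3K9me2 was lower at the ends in 6 of 6 libraries. Its levels in control libraries were -0.12 at day 4 and -0.14 and -0.14 at day 8, and in cKO libraries -0.13, -0.20 and -0.047. The mean was -0.13 ± 0.050 (SD, n = 6, p = 0.0312, two-sided exact sign-flip permutation test), which is the smallest p that 6 libraries allow. The test measures agreement between libraries that share 1 input, and not spread over the ends. The 6 libraries of a mark are 3 control and 3 cKO, so the SD and p also take in any difference between the genotypes. In control libraries the ends ran from -0.65 to 0.23, and their median was nearer to 0, at -0.063.

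H3K9me3 was also lower in 6 of 6 libraries, by less in control ESCs. Control levels were -0.023, -0.011 and -0.038, and cKO levels were -0.083 at day 4 and -0.18 and -0.18 at day 8. The groups did not overlap, and the mean of all libraries was -0.087 ± 0.078 (SD, n = 6, p = 0.0312, same exact test). The call was lost without the chromosome 15 end (-0.064, p = 0.156, exact) and with reads corrected for GC content (-0.060, p = 0.0938, exact), and over the last 0.5 Mb the mean was 0.0050.

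H3K27me3 at the ends depended on 1 chromosome. Control levels were 0.077, 0.085 and 0.063, and cKO levels were 0.026 at day 4 and -0.073 and -0.10 at day 8. The mean was 0.012 ± 0.081 (SD, n = 6, p = 0.719, same exact test). It pools control libraries at 0.075 ± 0.011 with cKO libraries at -0.050 ± 0.067 (each SD, n = 3), so its SD holds the difference between them. Without the chromosome 15 end every library was below 0, from -0.042 to -0.19, with a mean of -0.10 ± 0.069 (SD, n = 6, p = 0.0312, same exact test). That alternative was added after the values were seen. Over the last 0.5 Mb the mean of all ends was -0.077.

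The marks were then compared with each other over 6 libraries each, control and cKO pooled. The 3 pairs have Benjamini-Hochberg adjusted p-values from two-sided exact permutation tests. H3K27me3 exceeded H3K9me2 by 0.14 (exact p = 0.00866, adjusted p = 0.0260), but by 0.0085 without the chromosome 15 end (adjusted p = 0.835). H3K27me3 exceeded H3K9me3 by 0.099 (exact p = 0.0563, adjusted p = 0.0844), a difference that became -0.038 without that end, and H3K9me2 was below H3K9me3 by a difference of -0.042 (p = 0.284, adjusted p = 0.284). Over the last 0.5 Mb the last of these differences was -0.21 and passed (adjusted p = 0.00649, exact permutation). All libraries share 1 input, whose own error is not part of these spreads.

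Single ends differed by far more than this average. H3K27me3 in control libraries was highest at the chromosome 15 end, at 2.21, 2.48 and 2.19 (mean 2.29 ± 0.16, SD, n = 3), or 4.90-fold above the rest of its chromosome. The chromosome 2 and 7 ends followed at 0.65 ± 0.037 and 0.65 ± 0.069 and did not differ beyond their spread, with the chromosome 16 end at 0.40 ± 0.047. The lowest were the ends of chromosome 6 (-0.59 ± 0.056), chromosome 17 (-0.55 ± 0.050) and chromosome 13 (-0.43 ± 0.028, each SD, n = 3). All 3 control libraries were above 0 at 7 ends and below 0 at 10.

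H3K9me2 was lowest at the ends of chromosome 6 (-0.65 ± 0.021), chromosome 4 (-0.65 ± 0.18) and chromosome 15 (-0.53 ± 0.083), and it was highest at the chromosome 16 end (0.23 ± 0.073, each SD, n = 3). All 3 control libraries were below 0 at 11 ends and above 0 at 3. H3K9me3 was highest at the ends of chromosome 16 (0.34 ± 0.041), chromosome 5 (0.24 ± 0.030), chromosome 18 (0.21 ± 0.046) and chromosome 3 (0.19 ± 0.039). It was lowest at the chromosome 15 end (-0.47 ± 0.070, each SD, n = 3). These values leave out the 1% of regions with most input. With those regions kept, a choice made after the data were seen, H3K9me3 at the chromosome 2 end was -0.55 in place of -0.044, below the chromosome 15 end, and at the chromosome 13 end 0.055 in place of -0.28. The control means of the chromosome 1 and 16 ends lay above the rest of the chromosome in all 3 marks, whereas those of 6 ends (chromosomes 6, 8, 12, 13, 14 and 17) lay below it in all 3, and of 5 with the high-input regions kept, which takes out chromosome 13. Across the 19 ends, GC content went with H3K27me3 (Pearson 0.63, Spearman 0.76) and hardly with H3K9me2 (-0.048 and 0.18) or H3K9me3 (-0.18 and -0.28), as a description over ends that share libraries.

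**Figure D1:**
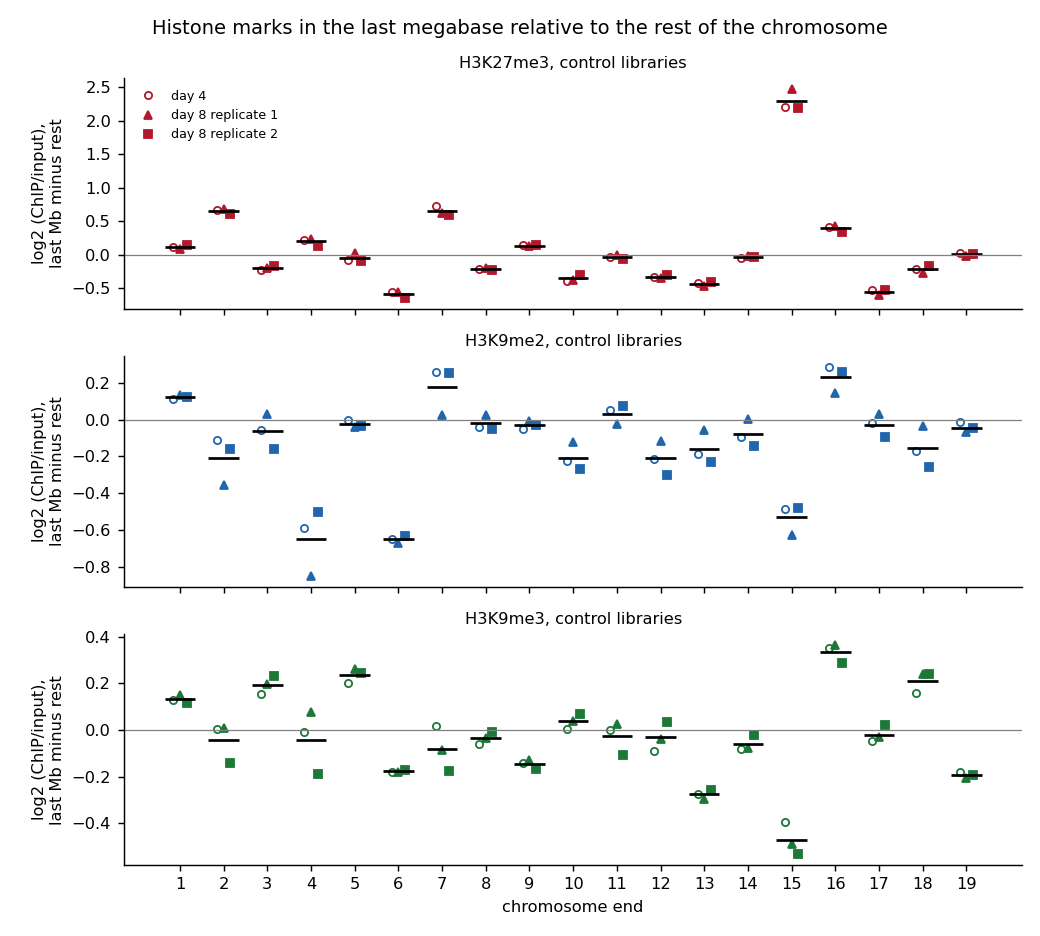
Level of each mark in the last megabase of each autosome minus the rest of the chromosome, as log2 of ChIP over input reads, in the 3 control libraries (points) with their mean (line). For H3K27me3 the chromosome 15 end stands alone at a mean of 2.29, and H3K9me2 is lowest at the ends of chromosomes 4, 6 and 15.

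Neighbouring and opposite ends gave other values in control libraries. In the second megabase from the distal end H3K27me3 was 0.097 ± 0.0085, H3K9me2 -0.046 ± 0.039 and H3K9me3 -0.11 ± 0.023 relative to the rest. In the first megabase with input reads, at the centromeric end, H3K27me3 was -0.17 ± 0.011, H3K9me2 -0.22 ± 0.024 and H3K9me3 0.18 ± 0.019, against -0.024 ± 0.014 for H3K9me3 in the last megabase (all SD, n = 3). H3K9me3 thus lay above the chromosome average in control libraries at the centromeric end and not over the whole distal megabase.

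Within the last megabase the K9 marks changed with distance from the end. Over the final 100 kb of all ends together, H3K9me3 was 0.35 ± 0.059 above input on the log2 scale, falling to 0.071 ± 0.021 at 100 to 200 kb and -0.29 ± 0.014 at 400 to 500 kb. H3K9me2 ran the other way near the end, at -0.39 ± 0.050 in the final 100 kb, -0.17 ± 0.033 at 100 to 200 kb and 0.027 ± 0.026 at 200 to 300 kb, and then fell like H3K9me3, to -0.27 ± 0.019 at 400 to 500 kb (SD, n = 3 control libraries). Per end and relative to the rest of the chromosome, H3K9me2 in the final 100 kb was below 0 at 19 of 19 ends, with a median of -0.29 and a range from -1.55 to -0.070. H3K9me3 was above 0 at 12 of 19 ends, with a median of 0.39. These counts use the mean of the control libraries, were chosen after the profile was seen and have no test. At the chromosome 18 end (0.066 ± 0.16, SD, n = 3) only 1 control library was above 0 for H3K9me3. For H3K9me2, 1 control library was above 0 at the chromosome 1 end and 1 at the chromosome 14 end. No share over other windows of 100 kb is given.

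The ends with most H3K9me3 in the final 100 kb were those of chromosome 16 (1.37 ± 0.052), chromosome 1 (1.32 ± 0.13), chromosome 4 (1.20 ± 0.30), chromosome 2 (0.90 ± 0.21) and chromosome 5 (0.88 ± 0.13). The lowest were chromosome 13 (-0.55 ± 0.060) and chromosome 6 (-0.48 ± 0.098, each SD, n = 3). The rank of chromosome 13 came from the filter on high input. With the high-input regions kept its final 100 kb was at 1.22 ± 0.26, among the highest, while chromosome 2 fell to 0.34 ± 0.24, chromosome 11 was at 0.46 in place of 0.63 and chromosome 6 was lowest at -0.53 ± 0.098. Over all ends the median was then 0.37, 13 of 19 ends were above 0, and the pooled H3K9me3 was 0.45 ± 0.094. H3K27me3 showed no such course, at -0.012 ± 0.046 in the final 100 kb, and its peak of 0.80 ± 0.11 at 600 to 700 kb became -0.23 ± 0.033 without the chromosome 15 end.

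**Figure D2:**
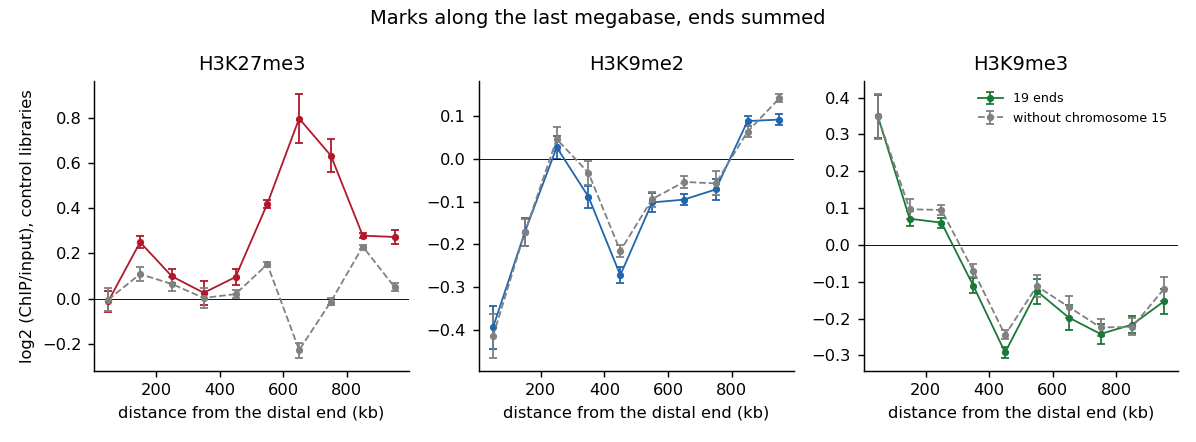
Log2 of ChIP over input along the last megabase in steps of 100 kb, reads of all ends summed, as mean and SD of the 3 control libraries. Solid coloured lines show the 19 ends and dashed grey lines leave out the chromosome 15 end. H3K9me3 is highest (0.35) and H3K9me2 lowest (-0.39) in the final 100 kb.

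Genes were described by the 2 kb regions over the 1 kb upstream of their start. All such regions were members for 269 genes, of which 267 had at least 5 input reads. H3K27me3 was at least 2-fold above input in control libraries at 85 of the 267 (31.8%), close to 31.1% of 21664 autosomal promoters elsewhere, and at least 4-fold at 53. These 53 were 14 of 27 promoters at the chromosome 15 end, 5 of 7 at the chromosome 1 end, 5 of 12 at the chromosome 16 end and 7 of 31 at the chromosome 2 end, with 0 of 37 at the chromosome 10 end. H3K9me2 was at least 2-fold at 3 promoters (1.12%, elsewhere 2.34%) and H3K9me3 at 3 (1.12%, elsewhere 2.34%).

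Among the gene lists, developmental regulators had the highest median H3K27me3. The list had 18 members, with a median of 17.6-fold against 16.3-fold for 258 members elsewhere. At least 2-fold were 14 of the 18, among 85 such promoters in the ends. It held 9 *Hoxc* genes, homeobox transcription factors that set position along the body axis, at 8.65- to 41.7-fold. It also held *Sox18*, a transcription factor of vessel development, at 18.8-fold ± 4.05, and *Fgf15*, a fibroblast growth factor, at 20.3-fold ± 3.52. *Fgf4*, a growth factor expressed by ESCs, had 2.16-fold ± 0.56 and *Myt1*, a neural zinc finger factor, 1.57-fold ± 0.12. *Neurod4*, a neural transcription factor at the chromosome 10 end, was below input at 0.773-fold ± 0.077 (each SD, n = 3).

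Other lists were low. The 36 olfactory receptor, vomeronasal receptor and other tandem family genes, nearly all at the chromosome 10 end, had a median H3K27me3 of 0.569-fold, H3K9me2 of 0.772-fold and H3K9me3 of 0.665-fold, and 0 of 36 reached 2-fold for any mark. The zinc finger list held 5 genes with a median of 0.540-fold H3K27me3, and only *Zbtb46* reached 2-fold, at 9.12-fold ± 1.13. No ribosomal protein gene lay there. *Rtel1*, a helicase needed for telomere length and the single telomere maintenance gene of the list at an end, had 1.06-fold ± 0.046 H3K27me3, 0.431-fold H3K9me2 and 0.528-fold H3K9me3.

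By promoter, the highest H3K27me3 was at *Kl*, which encodes the ageing-related protein klotho, with 49.1-fold ± 12.9 on 5 input reads, then *Hoxc12*, *Hoxc9*, *Hoxc6* and *Hoxc11*. For H3K9me2 the 5 highest were *Gm10152* (2.14-fold ± 0.49), *Ano1* (1.91-fold ± 0.47), *Mx1* (2.01-fold ± 0.58), an interferon-induced antiviral gene, *Sectm1a* (1.86-fold ± 0.50) and *Sectm1b* (2.15-fold ± 0.78). For H3K9me3 they were led by 3110070M22Rik (11.2-fold ± 2.66) and *Gm7120* (6.79-fold ± 1.68), whose starts are 7122 and 2801 bases from the chromosome 13 end. Both have many input reads (96 and 74). They were followed by *Fyco1* (2.62-fold ± 0.22), which encodes an adaptor of vesicle transport, *Ano1* and *Gtsf1*, a gene of small RNA silencing in the germline (1.82-fold ± 0.52, each SD, n = 3).

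The *Hoxc* cluster (chromosome 15, 102751534 to 102867274, 115.74 kb) was set apart from the rest of its end. Its 59 regions had 22.2-fold more H3K27me3 over input than the rest of the chromosome (log2 4.47 ± 0.22) and took 50.3% of the H3K27me3 reads of the end. The remaining 436 regions still had 2.74-fold (log2 1.45 ± 0.10). H3K9me2 in the cluster was 0.286-fold (log2 -1.81 ± 0.060) and H3K9me3 0.528-fold (log2 -0.92 ± 0.23, all SD, n = 3 control libraries).

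**Figure D3:**
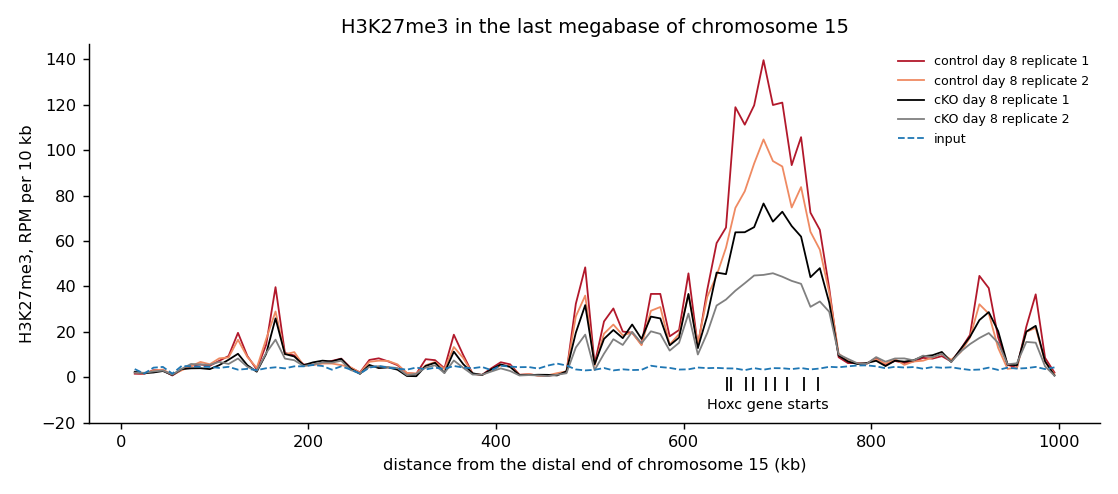
H3K27me3 along the last megabase of chromosome 15 in RPM (reads-per-million) per 10 kb against distance from the distal end, in the 4 day 8 libraries and the input. Ticks mark the starts of the 9 *Hoxc* genes. Within each pair the control library lies above the cKO library over the cluster, where the H3K27me3 change was -0.74 and -0.99 on the log2 scale in the pairs.

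The cKO was compared with control per end in RPM (reads-per-million). A change is the log2 RPM of cKO minus control. Day 8 was tested with limma and Benjamini-Hochberg adjustment over all 2541 windows of 1 Mb counted from the distal ends of the genome's chromosomes, the members being the first window of each autosome. An exact permutation test of 2 libraries against 2 cannot give a two-sided p under 0.333, so no test of single values is given. At day 4, with 1 library per group, 95% exact binomial intervals cover counting error only.

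H3K27me3 was lower in both day 8 pairs at 12 of 19 ends and higher in both at 1. For these joint counts no share of all windows is given. In the single day 8 pairs 17 and 13 ends were lower, against 42.6% and 41.0% of all windows. The median change over ends was -0.037 at day 4 and -0.17 and -0.17 in the day 8 pairs, against 0.0012, 0.023 and 0.040 over all windows. In the second megabase it was -0.038, -0.070 and -0.086. By limma 0 of 19 ends passed an adjusted p of 0.05 (0% of all windows), and 7 of 19 had an unadjusted p under 0.05 (6.14% of all). With the replicate number as a block 11 ends passed, all lower, where 39.4% of all windows were called and 15.8% as lower.

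The chromosome 15 end changed most in value. Its H3K27me3 was 1863 RPM in control and 1711 in cKO at day 4, 2242 against 1562 in the first day 8 pair and 1836 against 1172 in the second. All cKO values lie below all control values, at an end singled out for its change. The day 8 change was -0.59 with a standard error of 0.17 (adjusted p = 0.683, limma). The chromosome 2 end followed with 671 against 601 RPM at day 4, 675 against 533 in the first day 8 pair and 641 against 462 in the second, a change of -0.41 with a standard error of 0.094 (adjusted p = 0.683, limma). The chromosome 13 end was the one with higher values in both day 8 pairs (0.044 and 0.11).

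Inside the chromosome 15 end the *Hoxc* cluster changed by -0.20 at day 4 and by -0.74 and -0.99 at day 8 (mean -0.86 ± 0.18, SD, n = 2), against -0.35 ± 0.045 in the rest of the end. H3K9me2 in the cluster differed between the pairs, with -0.17 in the first and 1.32 in the second, so that no common direction was seen.

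H3K9me2 had no common direction over the ends. The median change was -0.034 at day 4, -0.096 in the first day 8 pair and 0.057 in the second, and the pairs went in opposite directions at 11 of 19 ends. Values were higher in all 3 pairs at 6 ends and lower in all 3 at 2. No matching share of all windows is given, so these counts do not set the ends apart from the genome. The chromosome 4 end, the most GC-rich after that of chromosome 7, was among the 6 and changed most. It had 244 RPM in control and 294 in cKO at day 4 (change 0.26, interval 0.20 to 0.33), 202 against 279 in the first day 8 pair and 260 against 370 in the second. All cKO values exceeded all control values, at an end singled out for its change. The change was 0.48 with a standard error of 0.12 (adjusted p = 0.00302, limma). This was the single end called, where 7.36% of all windows were called. With reads corrected for GC content, with scaling to the median window and with means of the deposited values, 0 ends were called. Each of these called 0% of all windows.

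H3K9me3 fell at 10 of 19 ends by limma, by -0.16 to -0.41, and rose at 0. Of all windows 55% were called, 29.4% as lower, so that the share called at the ends (10 of 19) is near the background while its direction is one-sided. The 10 ends were those of chromosomes 1, 3, 8, 10, 12, 14, 16, 17, 18 and 19. Their GC content was 37.5% to 44.3%, whereas ends without a call ranged from 38.7% to 49.7%. The median change over the ends was -0.049 at day 4 and -0.14 and -0.16 at day 8, against 0.0058, -0.017 and 0.030 over all windows. Values were lower in all 3 pairs at 14 ends, a count for which no share of all windows is given. In the single pairs 16, 17 and 14 ends were lower, against 47.1%, 53.9% and 45.7% of all windows. Relative to the rest of the same chromosome, an alternative added after the data were seen, 10 ends were also lower (52.6% of all windows called).

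The largest falls were at the ends of chromosomes 18 and 3. At the chromosome 18 end H3K9me3 was 399 RPM in control and 369 in cKO at day 4, 422 against 324 in the first day 8 pair and 419 against 308 in the second (change -0.41, standard error 0.066, adjusted p = 2.31e-08, limma). At the chromosome 3 end it was 421 against 395, 428 against 327 and 449 against 334 in the same order (change -0.41, standard error 0.066, adjusted p = 2.97e-08, limma). At both ends, singled out for their change, every cKO value was below every control value. Next came the ends of chromosome 14 (-0.29, adjusted p = 6.48e-05) and chromosome 1 (-0.26, adjusted p = 0.000497, both limma). The standard error was 0.066 at every end, while the SD between the day 8 pairs ran from 0.0035 to 0.089 over the ends. Limma had drawn the variance to 1 value shared by all windows, and these p-values rest on that pooling. The chromosome 4 end differed by 0.095 (adjusted p = 0.219, limma). The shallow cKO library of the first pair enters these values. Without it 7 ends were called (46.2% of all windows), and without the control library of the second pair 4 were (22.5% of all), shares near or below the background.

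At day 4 the counting interval was below 0 at 9 ends for H3K27me3, 7 for H3K9me2 and 11 for H3K9me3, and above 0 at 0, 4 and 0 ends. The share over all windows was not computed, so these counts do not set the ends apart from the genome. Whether the change differed between days was tested with a day by genotype term in limma. No end passed for any mark, and the lowest adjusted p was 0.273 for H3K9me3.

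**Figure D4:**
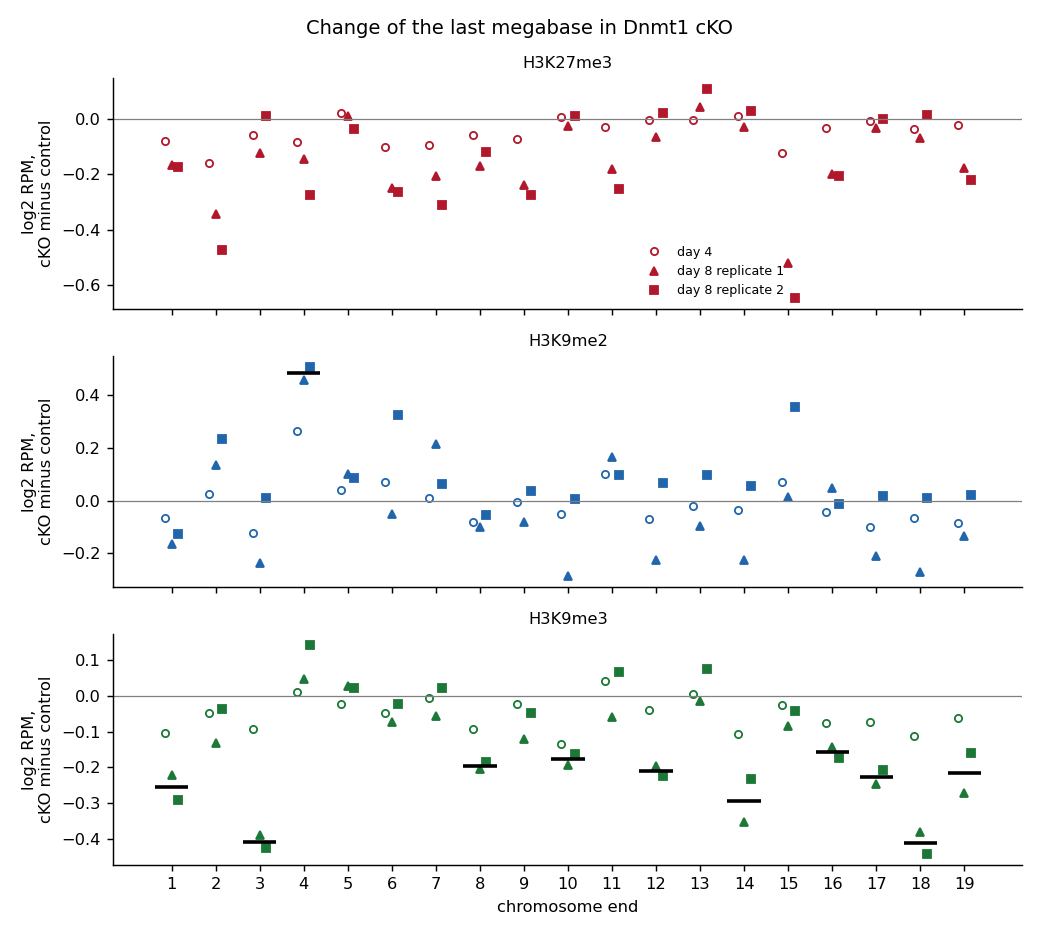
Change of each mark in the last megabase of each autosome, as log2 RPM of cKO minus control, for day 4 and both day 8 pairs (points). Black lines are the limma estimates of ends with an adjusted p under 0.05. They mark 0 ends for H3K27me3, the chromosome 4 end for H3K9me2 and 10 ends for H3K9me3, all lower.

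The change went with GC content across the ends. As a description over 19 ends, the mean day 8 change had a Spearman correlation with GC of -0.81 for H3K27me3, 0.82 for H3K9me2 and 0.62 for H3K9me3 (Pearson -0.71, 0.80 and 0.64). Reads corrected for GC by each library's own trend gave 12 called H3K9me3 ends (36.6% of all windows), 11 lower (17.9% of all) and 1 higher, and a median day 8 change of -0.14 for H3K9me3 and -0.16 for H3K27me3.

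In windows of 100 kb, limma called 0 of 189 in the ends for H3K27me3 (0% of all 25292 windows, 45 of 189 at an unadjusted p under 0.05, 12.5% of all) and 0 for H3K9me2 (0% of all, 12 unadjusted, 12.8% of all). For H3K9me3 it called 41 of 189 (22.4% of all), of which 40 were lower (12.5% of all) and 1 higher. The 41 lay at 13 ends, 8 of them at the chromosome 18 end and 7 at the chromosome 3 end. The lower ones changed by -0.29 to -0.60. The final 100 kb was called at 7 of 19 ends, with a median change there of -0.12 against -0.13 in the other windows. With the GC correction 10 windows were called (3.91% of all), and without the control library of the second day 8 pair there was 1 (0.676% of all).

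For the 9272, 9267 and 9273 members with reads, limma called 0 for each of the 3 marks (0% of all regions), with 819, 439 and 646 at an unadjusted p under 0.05 (7.66%, 5.68% and 6.24% of all). With limma-voom it called 65 for H3K27me3 (0.431% of all), 0 for H3K9me2 and 2 for H3K9me3 (0.0386% of all, above the share in the ends). At the leading H3K27me3 region over *Fgf3* the control libraries held 361, 367 and 320 reads and the cKO libraries 173, 130 and 80 (day 4, then the first and second day 8 libraries). The groups do not overlap, in a region picked for its high control values (change -1.84, adjusted p = 0.582, limma). In the leading H3K9me3 region, whose sequence is given above, control libraries held 115, 181 and 125 reads and cKO libraries 128, 45 and 98 (change -0.32, adjusted p = 0.894, limma). The 45 come from the shallow library of 5669098 reads, whose control had 18762413, so these raw reads overstate the difference. For H3K27me3 the regions at *Hoxc9* (48.5-fold ± 6.44) and *Kl* (49.1-fold ± 12.9) differed by -0.96 and -0.85. For H3K9me2 those in *Chrna4* (5.24-fold ± 0.53) and near *Stard13* (4.90-fold ± 0.73), both on 5 input reads, differed by 0.43 and -0.060. For H3K9me3 those near *Agrn* (18.9-fold ± 4.75) and AC109145.1 (17.1-fold ± 5.52) differed by -0.21 and -0.12. None of these passed. At day 4, windows of 10 kb at least 2-fold different numbered 24 of 1856 in the ends for H3K27me3 (0.911% of all windows), 14 for H3K9me2 (1.07% of all) and 4 for H3K9me3 (0.341% of all).

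At promoters, limma called 0 for each mark in the ends (0% of all promoters) and 0 gene bodies (0% of all gene bodies). At promoters, an unadjusted p under 0.05 was found for H3K27me3 at 73 of 267 (21.5% of all promoters), for H3K9me2 at 5 of 266 (4.93% of all) and for H3K9me3 at 9 of 267 (5.36% of all). At gene bodies it was found for 83, 5 and 30 of 257 (20.7%, 4.25% and 12.4% of all). With a trend in the variance, limma called 31 H3K27me3 promoters, all lower, or 31 of 267 against 8.24% lower among all promoters. H3K27me3 was lower in both day 8 pairs at 170 of 269 promoters and higher in both at 30. The same share over all promoters was not computed, so these counts do not set the ends apart. The median change was -0.53, against -0.38 at promoters elsewhere. It was -0.84 at the 44 promoters with at least 80 CpG sites per region and -0.18 at the 78 with fewer than 20. The H3K9me2 medians of these classes were 0.70 and -0.13, as means of 2 pairs that disagreed. Over all promoters of the ends the H3K9me2 median was -0.037 in the first day 8 pair and 0.56 in the second. The median of the pair means was 0.29, against 0.44 elsewhere.

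The developmental regulators had a median H3K27me3 change of -0.83, against -0.92 for members of the list elsewhere. Of 18 members 0 passed the adjusted threshold and 7 had an unadjusted p under 0.05 (21.5% of all promoters, limma). In both day 8 pairs 12 were lower, as were 170 of the 269 promoters of the ends. No such counts are given for the list elsewhere, so these do not set its members in the ends apart. *Hoxc12* held 513 reads in control and 343 in cKO at day 4, 603 against 311 in the first day 8 pair and 467 against 240 in the second (change -1.05 ± 0.20, SD, n = 2, adjusted p = 0.188, limma). Every cKO value is below every control value, at a promoter that is among the highest in control libraries. Over the *Hoxc* genes the change ran from -1.06 at *Hoxc5* to -0.25 at *Hoxc13*. *Sox18* held 351 against 203, 404 against 171 and 282 against 130 reads in the same order (change -1.27 ± 0.11, adjusted p = 0.147, limma). *Fgf4*, by contrast, differed by 0.066 ± 0.25 and *Myt1* by 0.33 ± 0.066, and neither passed.

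The largest H3K27me3 differences at promoters were lower values at *Pusl1*, a pseudouridine synthase gene, *Dennd5b* and *Zfp750*, an epidermal transcription factor. *Pusl1* held 62 reads in control and 48 in cKO at day 4, 67 against 15 in the first day 8 pair and 59 against 7 in the second (change -2.59 ± 0.78, adjusted p = 0.0970, limma). Its day 4 values lie close together and its day 8 groups far apart, at a promoter picked for its day 8 difference. *Dennd5b* held 42 against 36, 61 against 15 and 49 against 9 (change -2.23 ± 0.46, adjusted p = 0.100, limma), and *Zfp750* held 3 against 2, 12 against 7 and 8 against 0 reads. The highest values in the other direction were at 2310042D19Rik (1.00 ± 0.59), *Gtsf1* (0.90 ± 0.28) and *Plekhn1* (0.88 ± 0.29), and none passed (adjusted p = 0.200, 0.242 and 0.316, limma).

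Over gene bodies the lowest H3K27me3 changes were at *Tmem158* (-2.68 ± 0.71), *Ccnd1*, which encodes cyclin D1 of the cell cycle (-1.69 ± 0.34), and *Mmp23*, a metalloproteinase gene (-1.67 ± 0.11). *Ccnd1* held 187 reads in control and 114 in cKO at day 4, 177 against 62 in the first day 8 pair and 197 against 60 in the second (adjusted p = 0.192, limma). All control values exceed all cKO values, at a gene picked for its large day 8 difference. The highest were at *Olfr806* (0.97 ± 0.64), *Olfr796* (0.82 ± 0.66), both olfactory receptors, and 2310042D19Rik (0.73 ± 0.33).

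For H3K9me2 the largest promoter differences were at *Kl* (1.98 ± 0.62), *Mmp23* (1.77 ± 0.77) and *Prkcz* (1.62 ± 0.56), which encodes an atypical protein kinase C, all on 1 to 20 reads per day 8 library. The lowest were at *Olfr808* (-1.15 ± 0.49), *Olfr813* (-0.96 ± 0.28) and *Olfr827* (-0.92 ± 1.05), where reads ran from 6 to 55. Each had an adjusted p of 0.823 by limma. For H3K9me3 the lowest promoter values were at *Pcmtd2* (-1.71 ± 1.54), *Olfr801* (-1.35 ± 0.28) and *Olfr814* (-1.11 ± 0.14), and the highest at BC006779 (1.14 ± 0.16), *Olfr813* (1.10 ± 0.99) and 4833420G17Rik (0.99 ± 0.96), each with an adjusted p of 0.836 by limma. The H3K9me3-rich promoters at the chromosome 13 end differed little: 3110070M22Rik held 914 reads in control and 1050 in cKO at day 4, 1345 against 444 in the first day 8 pair and 891 against 825 in the second, a change of 0.0057 ± 0.18 once scaled to depth.

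Over gene bodies the highest H3K9me2 differences were at *Klhl17* (1.48 ± 0.78), *Hoxc10* (1.27 ± 1.48) and *Isg15*, an interferon-induced gene (1.11 ± 0.17), and the lowest at the olfactory receptor genes *Olfr808* (-0.84 ± 0.55), *Olfr819* (-0.78 ± 0.68) and *Olfr814* (-0.76 ± 0.84), each with an adjusted p of 0.719 by limma. *Klhl17* held 25 reads in control and 47 in cKO at day 4, 19 against 69 in the first day 8 pair and 30 against 82 in the second. Its groups do not overlap, but it was picked for its large day 8 difference. For H3K9me3 the highest were at *Hnrnpa1*, an RNA-binding protein gene (1.08 ± 0.12), *Plekhn1* (0.79 ± 0.017) and *Tnfrsf4* (0.70 ± 0.023). The lowest were at *Ppdpf* (-1.23 ± 0.52), B230307C23Rik (-1.22 ± 0.028) and *Gm10562* (-1.19 ± 0.25), and the adjusted p of these 6 ran from 0.402 to 0.511 by limma. B230307C23Rik held 185 against 152, 163 against 20 and 216 against 94 H3K9me3 reads in the same order, where the 20 are of the shallow library.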

How the data were processed

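ChIP-seq was done for 3 histone marks in 18 libraries, with 1 input. The authors trimmed the reads (Trim Galore), aligned them to NCBIM37 (Bowtie2 2.2.9, per the submitters' processing notes) and dropped alignments of low mapping quality. The authors deposited log2 values of observed over expected reads per 2 kb region, without subtraction of input. Their methods state a smaller region size. Low values were steps of whole reads (100% came out whole), and reads were recovered for all libraries (5669098 to 26181489 reads in ChIP, 19010249 in input). These totals limit precision, and intervals cover counting error only.

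Sums left out the 1% of regions with most input (over 29 reads, 189 members). Windows were counted from the distal ends and kept where at least 50% was covered. Log2 RPM (reads-per-million) with 0.5 reads added (1 for promoters and gene bodies, at least 10 reads) was fitted with limma 3.58.1 in R 4.3.3 over all features (lmFit and eBayes without trend, Benjamini-Hochberg threshold 0.05), tested on simulated data first. Regions were fitted on the deposited log2 values. Exact tests used SciPy 1.17.1 or enumerated every sign. GC, annotation (GENCODE) and sequence came from NCBIM37. GC correction divided reads by each library's mean in GC bins of 2 percentage points. Members, gene lists and tests were chosen with earlier results of these data known. Named were every end, the 5 highest promoters and the 3 highest regions per mark, the 3 largest promoter and gene body differences per direction with the same sign in both pairs and at least 20 reads, and members of gene lists by symbol. Levels needed at least 5 input reads. A repeat sequence and the regions chosen by it are not reported here.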

Additional observations from a re-analysis of the deposited data

How the results depend on the processing

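Levels in the last megabase depended on how the end was defined. With the high-input regions kept, chosen after seeing the data, H3K9me3 at the chromosome 13 end was 0.055, and 1.22 in its final 100 kb, where the filter had left it below 0. With 0.5 Mb from the end, H3K27me3 was -0.077, H3K9me3 was 0.0050, H3K27me3 minus H3K9me3 was -0.082 and H3K9me2 minus H3K9me3 was -0.21. Without chromosome 15, chosen after seeing the data, H3K27me3 was -0.10, H3K9me3 -0.064, H3K27me3 minus H3K9me2 0.0085 and H3K27me3 minus H3K9me3 -0.038. With control libraries only, H3K9me2 was -0.13, H3K9me3 -0.024 and H3K27me3 minus H3K9me2 0.21, where 3 libraries cannot pass the threshold. H3K27me3 minus H3K9me3 passed it with means of the deposited log2 values (0.13), pooled reads (0.27), high-input regions kept (0.13) and GC correction (0.13), under which H3K9me3 was -0.060. Leaving out 1 library at a time gave H3K27me3 -0.0021 to 0.035, H3K9me2 -0.14 to -0.11 and H3K9me3 -0.10 to -0.067, where 5 libraries cannot give an exact p under 0.0625. The differences between marks were 0.13 to 0.16, 0.080 to 0.12 and -0.061 to -0.027. The cause was not tested.

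The median day 8 change of H3K27me3 over the ends was -0.15 with means of deposited values, -0.21 scaled to the median window, -0.16 with GC correction and -0.17 over 0.5 Mb. For H3K9me3 it was -0.13 scaled, -0.14 with GC correction and -0.17 over 0.5 Mb. With 1 pair left out the medians were -0.173 to -0.168 for H3K27me3, -0.096 to 0.057 for H3K9me2 and -0.16 to -0.14 for H3K9me3.

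With the replicate number as a block, 11 H3K27me3 ends were called (12 with GC correction), 72 windows of 100 kb (73), 13 H3K9me2 windows (0) and 70 H3K9me3 windows (45). Of all windows of 100 kb the block called 29.7%, 10.5% and 38.8% in the order of the marks above, and with GC correction 24.4%, 0% and 16.6%. Of all windows of 1 Mb it called 39.4% for H3K27me3 (43.5% with GC correction). Same-numbered day 8 libraries deviated together (correlations over 1 Mb windows of 0.911, 0.455 and 0.478 for H3K27me3, H3K9me2 and H3K9me3), but there are 2 pairs and the labels name no shared batch, so the numbers were not taken to pair the samples.

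H3K9me2 ends numbered 0 with means of deposited values, scaling to the median window or GC correction. Means of deposited values left 5 H3K9me3 ends (19.6% of all windows of 1 Mb) and 24 windows of 100 kb (9.82% of all). GC correction left 10 H3K9me3 windows (3.91% of all). A variance trend gave 2 H3K9me2 windows (1.30% of all), 43 H3K27me3 regions (0.244% of all) and 31 H3K27me3 promoters (8.59% of all). With limma-voom 65 H3K27me3 regions (0.431% of all), 32 promoters (8.77% of all) and 2 H3K9me3 regions (0.0386% of all) were called. Leaving out 1 library gave 0 to 7, 0 to 2 and 4 to 10 ends in the order of the marks above, 0 to 39, 0 to 26 and 1 to 74 windows, 0, 0 and 0 to 656 regions, and 1 to 49, 0 to 25 and 0 to 1 promoters. The 656 H3K9me3 regions came without the second cKO library, which leaves the shallow one alone, and without the shallow one there were 54. The lone sample is then assumed to vary like the others. The fits with the most calls in the ends also called features over the rest of the genome. The counts without 1 library are given here without the share of all features, so they do not set the ends apart. Depth limits single regions, where the shallow library has a median of 3 reads.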

Other observations

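The 223 regions of the last megabases without an input read enter none of the comparisons. Their input is 0 by selection, so no level over input can be given. In control libraries H3K9me3 amounted to 12.2 ± 1.27 RPM over these regions together (204 to 256 reads per library), H3K27me3 to 4.54 ± 0.22 RPM (92 to 110 reads) and H3K9me2 to 3.54 ± 0.81 RPM (44 to 99 reads, all SD, n = 3).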
